A study of Ictalurus furcatus with 60 samples.

Results

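The genes described here are the 100 that took the largest share of sequencing counts in fresh sperm of male blue catfish (Ictalurus furcatus), out of 33677 genes in the deposited tables. They were chosen by the mean over 30 fresh libraries of CPM (a gene's counts scaled to a library total of 1000000). Their high level in fresh sperm is therefore a description, and so is any change measured from that level. The series holds 60 libraries in 2 groups of 30. The sperm of each male was split, with a portion put straight into a deep freezer, called fresh, and a portion taken through a cryopreservation protocol. Each male gave a single library per treatment, so the spread within a male and treatment is not measured, and the fresh portion was frozen too before its RNA was extracted. The study also recorded hatch success of the embryos, which is not analysed here.

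Mature sperm have compact chromatin and make little or no new RNA. The RNA they carry is mostly left from the development of germ cells in the testis, and some of it may come from other cells in the semen. Cryopreservation exposes sperm to cooling, cryoprotectant, freezing and thawing, which can damage membranes. In bulk libraries such as these, fewer cells of a type and less RNA per cell cannot be told apart.

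The deposited tables give each gene only an identifier, and 0 of the 33677 identifiers matched any of 26870 genes that RefSeq lists for the assembly Billie_1.0. The genes are therefore called by their rank by mean CPM in fresh sperm, and no function, position, sequence or defining marker of sperm could be given. Gene lengths were not used here either, so a rank is an order of shares of counts and not of numbers of RNA molecules. Ranks 1 to 100 do not always stand for separate transcripts. The counts of ranks 8 and 9 were identical in all 60 libraries, with 1008976 counts each, and so were those of ranks 51 and 52, with 405842 counts each. With these pairs taken as 1 gene each, 98 sets of counts remained. Among all genes of the tables, 85 genes fell into 42 such groups with identical counts.

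Libraries held between 929243 and 62118941 counts, and 10 males had at least 1 library under 50% of the median total (males 8, 9, 11, 12, 15, 34, 35, 36, 39 and 41). Most of the 100 genes were well covered in every fresh library. Their lowest count in any library was 4, for rank 2, and the median over the 100 genes of the lowest fresh count was 690.5. Precision by counting error is limited for ranks 1 and 2 in the libraries where they were nearly absent. No 2 libraries held identical counts. The most alike came from different males and treatments (male 4 cryopreserved, male 1 fresh). Their chi-square divided by its degrees of freedom was 2.92, so all libraries were counted separately.

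At the border of the rule the levels changed little. The last 3 genes inside, ranks 98 to 100, had means of 549.2, 538.6 and 537.4 CPM in fresh sperm. The first 3 genes outside had 536.0, 534.1 and 532.3 CPM. These steps are far smaller than the spread between males, with an SD of 380.7 CPM for rank 100 and 332.1 CPM for the first gene outside (n = 30).

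The share of counts held by the 100 genes differed more than 10-fold between libraries of the same treatment. In fresh sperm it was lowest in male 1 at 1.24%, had a median of 11.9% and was highest in male 34 at 18.8%. In cryopreserved sperm, whose libraries did not choose the genes, it was lowest in male 4 at 1.19%, had a median of 11.0% and was highest in male 36 at 24.0%. Ranks 1 and 2, described below as uncertain as separate genes, had 45463 and 45461 CPM in that library of male 36. A large part of its share thus lay in these genes. Male 11 had 21.9% after cryopreservation, with 22066 CPM for each of ranks 1 and 2. Without these genes the share of male 11 would be above that of male 36, so the highest share depended on them. Shares without ranks 1 and 2 were not computed for every library. If counts were spread evenly over all genes, 100 genes would hold 0.297%. The shares fell into separate ranges. In fresh sperm 13 libraries lay at 6.59% or below and 17 at 11.1% or above, and in cryopreserved sperm 13 lay at 5.69% or below and 17 at 9.88% or above.

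Most males lay in the same range before and after cryopreservation. Both libraries were above the gap in 14 males and both below it in 10. Of the other 6 males, males 4, 28 and 41 were above it in fresh sperm only and males 1, 2 and 3 in cryopreserved sperm only. Males 1, 2 and 3 had 1.24%, 1.75% and 1.85% when fresh and 14.2%, 13.7% and 14.9% after cryopreservation. Male 4 had the reverse, 11.6% when fresh and 1.19% after cryopreservation. The labels were kept as given, and whether they are right for these 4 males was not tested. Depth overlapped between the ranges but reached lower in the upper one. Fresh libraries above the gap had 1503064 to 22472870 counts, and those below it 5166699 to 24396207.

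**Figure D1:**
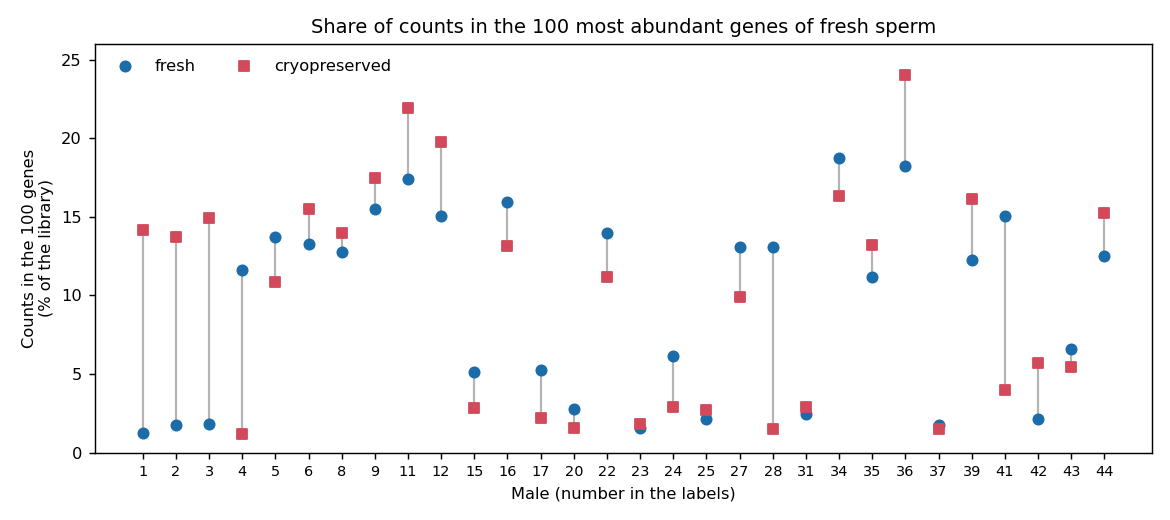
Share of counts in the 100 genes (y axis, percent of the library) for each of the 30 males (x axis), with fresh libraries as circles and cryopreserved libraries as squares, joined by a line within a male. The shares leave a gap between 6.59% and 11.1% in fresh and between 5.69% and 9.88% in cryopreserved libraries, and 6 males have a library on each side.

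The share of the 100 genes did not shift in a common direction after cryopreservation. Its mean was 9.47% ± 6.01 (SD, n = 30) before and 9.93% ± 6.99 (SD, n = 30) after cryopreservation. The difference within males was 0.452 percentage points on average with an SD of 5.98, and it ranged from -11.6 in male 28 to 13.1 in male 3. The cryopreserved library held the larger share in 16 of 30 males. Rank 1 rose on average from 2655 to 4343 CPM after cryopreservation, and rank 2 from 2644 to 4329 CPM. A large part of the 0.452 points thus lay in ranks 1 and 2, which are uncertain as separate genes. Without male 4 the mean difference was 0.827, and without the 10 males with a shallow library it was 0.26, both far inside the spread between males. Both checks kept males 1, 2 and 3, as did every other setting without male 4 alone. The shares of males 1, 2 and 3 rose from 1.24%, 1.75% and 1.85% to 14.2%, 13.7% and 14.9%, and that of male 4 fell. Leaving out male 4 alone thus moves the mean up only, and the mean without males 1 to 4 was not computed. No test was made on this sum, since the genes were chosen in fresh sperm.

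Ranks 1 and 2 led the list through a minority of males. Rank 1 (AUIFUG00000044454) had a mean of 2655 CPM in fresh sperm, but its median was only 44.2 CPM, between a lowest value of 1.10 in male 4 and a highest of 15986 in male 41. In cryopreserved sperm it went from 1.13 CPM in male 3 over a median of 49.6 to 45463 CPM in male 36. The values were far from evenly spread, since 9 fresh libraries lay between 1363 and 15986 CPM and the other 21 at 157.6 CPM or below. In cryopreserved sperm 6 libraries lay between 2264 and 45463 CPM and the other 24 at 800.3 CPM or below. Rank 2 (AUIFUG00000039263) was near rank 1 in its highest libraries, with a mean of 2644 and a median of 29.8 CPM in fresh sperm. Rank 1 had at least as many counts as rank 2 in all 30 libraries of each treatment, and their difference was 0 to 23.7 CPM in fresh and 0 to 92.5 CPM in cryopreserved libraries. The counts were close where both genes were high, with 24028 and 24007 counts in the fresh library of male 41. Where both were low the counts were close in some libraries, with 608 and 604 in the fresh library of male 22. In others they differed several-fold, with 374 and 47 counts in the fresh library of male 3 and 86 and 12 in the cryopreserved library of male 2. The high levels are uncertain as levels of separate genes, since the sources used here do not state how reads shared by overlapping or near-identical genes were counted.

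The males with high levels of rank 1 were the males with shallow libraries. All 10 males with a library under 50% of the median total had more than 1000 CPM in at least 1 library, and 0 of the other 20 males did, whose highest value was 478.9 CPM. In 5 of the 10 males (9, 11, 12, 34 and 36) both libraries were above 1000 CPM, in males 8, 15, 35 and 41 only the fresh one, and in male 39 only the cryopreserved one. In 8 of the 10 males the library with fewer counts had the higher level. In male 39 the cryopreserved library, with 929243 counts in all, had 27841 CPM, and the fresh library, with 2258679 counts, had 157.6 CPM. The fresh library of male 12 was an exception in depth, with 13170611 counts and 1363 CPM. The part of depth in these levels was not tested. Over the 20 males without a shallow library, rank 1 had a mean of 36.2 CPM in fresh sperm and stood at position 7451, and rank 2 at position 10827.

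Ranks 3 to 10 were abundant in most males. Rank 3 had 189.8 CPM in the lowest fresh library, 2589 at the median and 5419 in the highest, and 168.2, 2680 and 4768 CPM in cryopreserved libraries. Rank 5 had 71.9, 2397 and 4216 CPM in fresh and 59.7, 2447 and 5212 CPM in cryopreserved libraries. Their ranges nearly coincide between treatments. Rank 6 had 204.7, 2025 and 4285 CPM in fresh and 198.3, 2059 and 4219 CPM in cryopreserved libraries. The genes of identical counts, ranks 8 and 9, had 162.8, 1860 and 3791 CPM in fresh and 152.3, 1709 and 3741 CPM in cryopreserved libraries. Ranks 7 and 10 had wider ranges with a longer upper end. Rank 7 had 29.8, 1099 and 6854 CPM in fresh and 33.4, 751.2 and 7025 CPM in cryopreserved libraries. Rank 10 had 64.9, 974.1 and 5602 CPM in fresh and 67.5, 1906 and 9910 CPM in cryopreserved libraries. The highest library was that of male 11 for rank 7 in both treatments. This upper end of rank 7 lay in males with a shallow library. The other males reached 2065 CPM in fresh (male 16) and 1360 CPM in cryopreserved sperm (male 42). For rank 10 the other males reached 2266 CPM in fresh sperm (male 44), but male 2 had 4755 CPM in cryopreserved sperm. The part of depth in these levels was not tested either.

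Rank 4 was high in every library. It had 589.8 CPM in its lowest fresh library, 2261 at the median and 3986 in the highest, and 600.5, 2600 and 5194 CPM in cryopreserved sperm. Its worst position was 17 among all genes of a fresh library and 20 among those of a cryopreserved library. Rank 21 was the only other gene of the whole tables that stood among the 100 highest of all 60 libraries. It never fell below 408.9 CPM in fresh or 396.1 CPM in cryopreserved sperm.

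**Figure D2:**
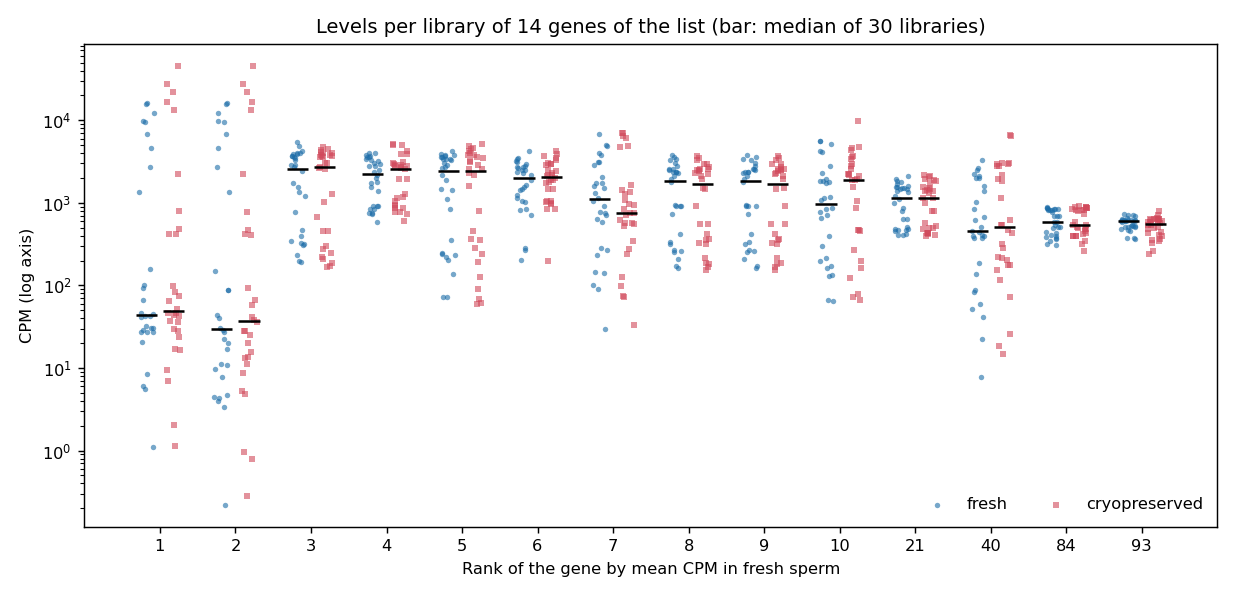
CPM on a log axis of 14 of the 100 genes, named on the x axis by rank, in 30 fresh (circles) and 30 cryopreserved (squares) libraries, with a bar at each median. Ranks 1 and 2 spread from 1.10 CPM or less to 15972 CPM or more with medians under 50 CPM, while rank 4 stays at 589.8 CPM or more and ranks 84 and 93 stay within a narrow band.

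Places in the list were held by changing genes from library to library. A fresh library had from 5 to 90 of the 100 genes among its own 100 highest, with a median of 78, and a cryopreserved library from 5 to 86, with a median of 76.5. The fewest were in the libraries with the lowest shares, the fresh library of male 1 and the cryopreserved library of male 4. In cryopreserved sperm 2 genes were among the 100 highest of all 30 libraries, 26 in at least 20 libraries, 66 in 10 to 19 and 8 in fewer than 10. Over both treatments 371 genes reached the 100 highest of at least 1 library, and 67 did so in 30 or more of the 60 libraries, and these were all among the 100.

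The members found least often near the top of cryopreserved libraries came from the lower end of the list. Rank 99 was among the 100 highest in 2 cryopreserved libraries, rank 87 in 5, and ranks 82 and 98 in 6 each. Rank 1, with 9, was also among the 8 genes found in fewer than 10. Rank 99 had a mean of 538.6 CPM when fresh and 514.3 CPM when cryopreserved, with a CV of 45.7% and 45.1%. Its position ran from 85 to 381 over fresh libraries and from 93 to 449.5 over cryopreserved ones, with medians of 133.25 and 166. By contrast, the mean level over libraries was ordered alike in both treatments. Spearman's rho between mean fresh and mean cryopreserved CPM was 0.96 across the 100 genes, which are not independent replicates, and the ratio of the means ran from 0.773 to 1.64. Within single libraries of either treatment the order of the 100 genes followed the order of the fresh means less closely. The median rho was 0.63 in cryopreserved libraries, with a range from 0.07 to 0.85. In fresh libraries, which made these means, it was 0.62, with a range from 0.10 to 0.89.

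Most of the 100 genes went up and down together. On the log2 scale of CPM scaled by TMM (trimmed mean of M-values, a correction for library composition), the median Pearson r over 4950 pairs of genes was 0.98 across the 30 cryopreserved libraries and 0.98 across the 30 fresh libraries. The same median was 0.98 in cryopreserved libraries for the next 100 genes in rank and 0.15 for pairs drawn from all tested genes. This is a description, since the genes share libraries and library composition. Within the 14 males with both libraries above the gap the median over pairs in cryopreserved sperm was 0.70, and within the 10 males with both below it was 0.95. Without TMM it was 0.96 over all 30 males. In levels taken as shares of the summed counts of the 100 genes, which have a fixed sum, it was 0.27. In these shares 29 of the 4950 pairs kept an r over 0.95 in both treatments. The common divisor can itself raise the r of genes that are steady in CPM.

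The closest pairs after the identical ones had near-equal total counts in some cases and unequal totals in others. Ranks 36 and 39 had an r of 1.00 in both treatments in these shares, and totals of 592877 and 582126 counts. The ratio of their counts was between 1.01 and 1.21 in every library. Such genes may share reads, and they are uncertain as separate transcripts. Ranks 20 and 22 had r of 0.98 in fresh and 0.98 in cryopreserved sperm, with totals of 827238 and 798001. For ranks 20 and 22 the totals were near-equal but the counts within a library were not always so, and either gene could be the higher. They had 2189 and 2812 CPM in the fresh library of male 34, and 44.8 and 31.1 CPM in that of male 23. Whether ranks 20 and 22 share reads was not tested. Other pairs had an r of 0.98 in both treatments with unequal totals. These were ranks 34 and 65 (646643 and 476797 counts), ranks 23 and 73 (649416 and 383930), ranks 84 and 93 (500516 and 422891) and ranks 5 and 33 (1326144 and 583254). Ranks 84 and 93 varied only 2.9- and 2.0-fold in CPM over fresh libraries. The sum that divides both ran from 1.24% to 18.8% of the counts there. Ranks 34 and 65 varied 5.8- and 6.9-fold there, also less than this sum. The part of the common divisor in the r of both pairs was not tested, and neither r is read as a link.

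**Figure D3:**
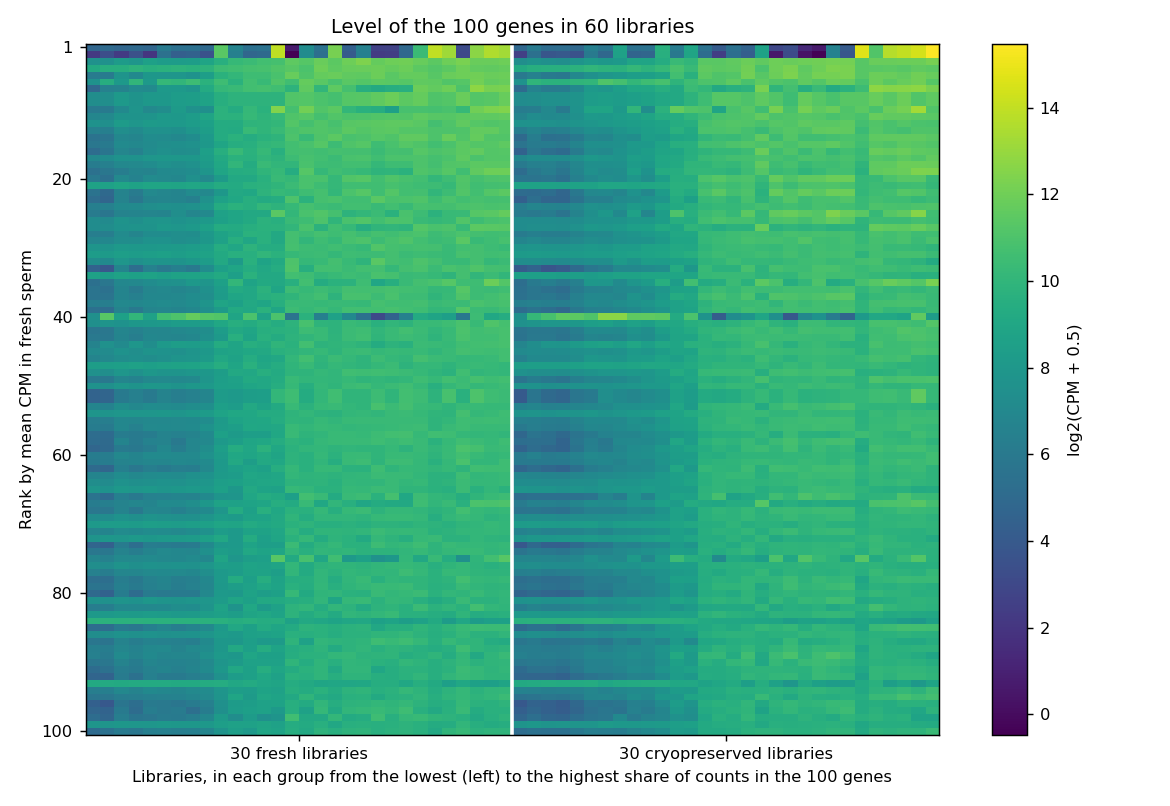
Level of the 100 genes, as log2 of CPM plus 0.5 (colour), by rank (y axis) in 30 fresh and 30 cryopreserved libraries (x axis), ordered in each group by the share of counts in the 100 genes. Most genes brighten together from left to right, and ranks 1 and 2 are bright in a few libraries only. The row at rank 40 tends the other way with exceptions, and so do ranks 84 and 93 within a narrow range of these CPM.

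Few genes stood apart from this common movement. Each gene's CPM was set against the summed CPM of the other 99 (log2, 0.5 added to the gene's own CPM). In cryopreserved libraries r was above 0.8 for 95 genes, between 0 and 0.8 for ranks 1 and 2 (0.29 and 0.33), and below 0 for ranks 40, 84 and 93. In fresh libraries r was above 0.8 for 94 genes, and the additional gene was rank 75 at 0.77. The direction of ranks 84 and 93 depended on the scaling. Their r was -0.91 and -0.56 in CPM of cryopreserved libraries, but 0.71 and 0.78 with TMM. With TMM only rank 40 stayed below 0, at -0.41 in cryopreserved and -0.26 in fresh libraries, against -0.61 and -0.46 in CPM. TMM factors ran from 0.426 to 1.88 between libraries, so that CPM with and without TMM differ widely.

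Ranks 84 and 93 were the steadiest of the 100 genes. Rank 84 had 310.9 CPM in the lowest fresh library, 585.1 at the median and 887.3 in the highest, and 262.5, 539.3 and 918.1 CPM in cryopreserved libraries. Rank 93 had 364.5, 601.8 and 733.3 CPM in fresh and 242.3, 554.5 and 794.2 CPM in cryopreserved libraries. Their SD of TMM-scaled log2 CPM was 0.24 and 0.56 in cryopreserved sperm, against a median of 2.33 over the 100 genes and of 1.37 over all genes tested. Both stood near the top in libraries with a low share. In the 13 cryopreserved libraries below the gap rank 84 held positions 4 to 27 and rank 93 positions 10 to 49, and above the gap positions 109 to 722.5 and 115 to 781.5. Rank 47 was the next steadiest, with an SD of 1.36 and 28 of 30 cryopreserved libraries in which it was among the 100 highest. The widest spreads were those of rank 2 (SD of 4.79), rank 1 (4.25) and rank 33 (3.11).

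Rank 40 tended to be high in libraries that held few counts in the rest of the list, with exceptions. It had 7.71 CPM in the lowest fresh library, 449.7 at the median and 3275 in the highest, and 14.7, 507.0 and 6658 CPM in cryopreserved libraries. More than 1000 CPM was found in 10 fresh and 12 cryopreserved libraries, and in males 11, 15, 20, 23, 24, 25, 31, 37 and 42 in both. Male 35 passed this level in fresh sperm only and males 17, 28 and 41 in cryopreserved sperm only. The lowest and highest values differed by far more within a treatment than the medians did between treatments. Among libraries below the gap it had 185.8 to 3275 CPM in fresh and 177.1 to 6658 CPM in cryopreserved sperm. Above the gap it had 7.71 to 2014 and 14.7 to 2997 CPM, so the ranges overlapped.

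**Figure D4:**
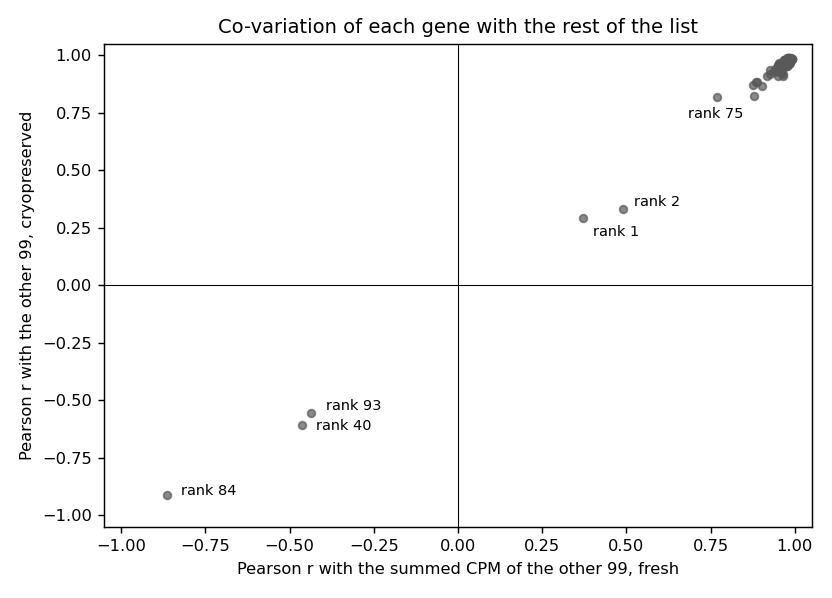
Pearson r of each of the 100 genes with the summed CPM of the other 99 across 30 fresh libraries (x axis) and 30 cryopreserved libraries (y axis). All but 6 genes crowd at values above 0.8 on both axes, and ranks 40, 84 and 93 lie below 0 in these CPM, which for ranks 84 and 93 turned positive with TMM.

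No call was made for any of the 100 genes between the treatments. With edgeR's quasi-likelihood test and Benjamini-Hochberg adjustment over 32336 genes, 0 of the 100 passed an adjusted p under 0.05, where 0% of all genes tested did. At an unadjusted p under 0.05 there were also 0 of the 100, where 2.21% of all genes had such a value. DESeq2 gave 0 of the 100 at either threshold, where 2.36% of all genes had an unadjusted p under 0.05. The smallest unadjusted edgeR p among the 100 was 0.223, for rank 25. Without the males with a shallow library the smallest among the 100 was 0.0502 (edgeR, unadjusted). One arm of this comparison chose the genes, so that levels high by chance in fresh sperm would tend to give lower fold changes, and these values are a description.

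The fitted differences were small beside their errors. The median log2 fold change of the 100 genes was -0.05, with 37 higher and 63 lower, against 0.02 over all genes tested, 46.0% of them lower. The split of the 100 genes changed with the scaling, with the males included and with the male as a block. With RLE size factors (the median-of-ratios method of DESeq2) the median was 0.06, with 70 higher and 30 lower, where 34.6% of all genes were lower. Without male 4 the median was 0.02, with 55 higher and 45 lower, where 49.6% of all genes were lower. Without the 10 males with a shallow library it was -0.14, with 22 higher and 78 lower, where 45.9% of all genes were lower. With the male as a block, which compares the libraries within each male, the median was -0.21, with 7 higher and 93 lower, where 46.3% of all genes were lower. In that fit 0 genes were called (edgeR adjusted p of at least 0.98), where 3.01% of all genes and 0 of the 100 had an unadjusted p under 0.05. Genes chosen instead by their mean in cryopreserved sperm had a median of -0.03, with 42 higher and 58 lower. The median half-width of the 95% interval was 0.95, against 0.55 for all genes. It excluded a 2-fold difference in both directions for 36 of the 100 genes, against 91.0% of all genes tested.

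The extremes of the 100 fold changes were uncertain as well. Ranks 1 and 2 had the highest, a log2 fold change of 0.97 each (SE 1.00 and 1.06), and were higher in the cryopreserved library in 19 of 30 males. With the male as a block these values were 0.05 and 0.11. Rank 25 came next at 0.68 (SE 0.55), from means of 1068 CPM when fresh and 1678 CPM when cryopreserved, and was higher in 17 of 30 males. Without the 10 males with a shallow library the order differed. Ranks 10 and 25 then had 1.17 and 1.03, above ranks 1 and 2 at 0.64 and 0.78. Over all males rank 10 had 0.43. At the other end rank 87 (AUIFUG00000000355) had a log2 fold change of -0.44 (SE 0.49), from means of 596.0 and 460.4 CPM. It was higher in the cryopreserved library in 11 of 30 males. Rank 98 (AUIFUG00000024022) had -0.35 (SE 0.52) and was higher in 12 of 30 males, and rank 32 had -0.35 (SE 0.45) and was higher in 10 of 30 males. In the fit over all males the edgeR adjusted p was 1.00 for each of these genes.

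**Figure D5:**
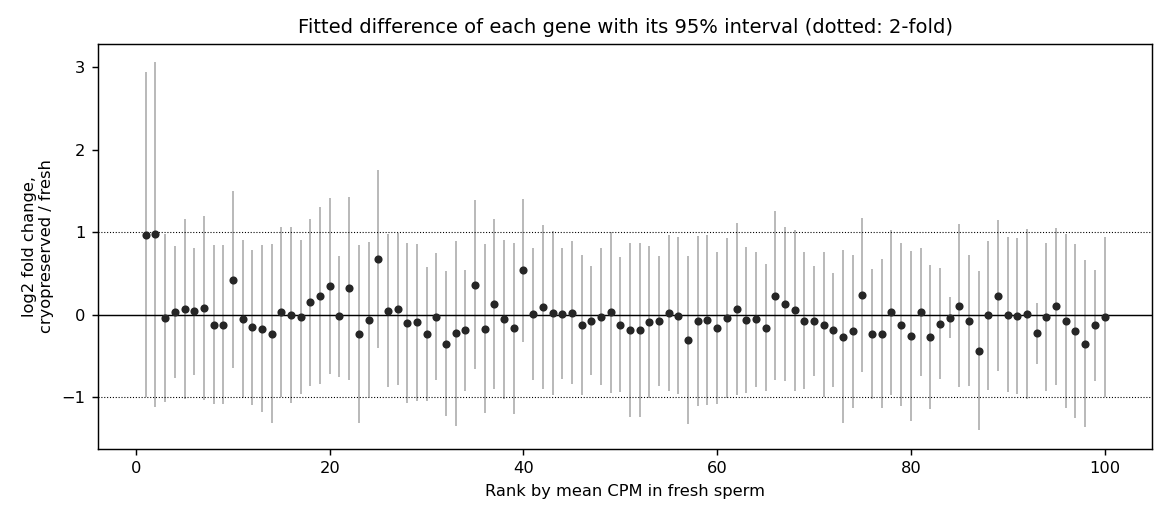
Fitted log2 fold change of cryopreserved over fresh sperm (y axis) for each of the 100 genes by rank (x axis), with 95% intervals and dotted lines at 2-fold. Every interval includes 0, and ranks 1 and 2, at 0.97, have the widest.

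Differences between males in fresh sperm returned in cryopreserved sperm for many of the 100 genes, as they did for genes at large. The log2 level in the fresh library was correlated with that in the cryopreserved library across the 30 males, and tested by 100000 re-pairings of males (permutation test in both directions, adjusted by Benjamini-Hochberg over 32336 genes). A positive correlation passed the threshold for 81 of the 100 genes, where 63.2% of all genes passed, and the median Pearson r was 0.43 against 0.45 over all genes. The males lay in separate ranges of share, so the r over all 30 males also contains the step between the ranges. Within the 14 males with both libraries above the gap the median r of the 100 genes was 0.22, and within the 10 males with both below it was 0.38. By Spearman's rho 36 of the 100 genes passed, where 46.8% of all genes did. Without male 4 it was 97 genes by Pearson's r, where 69.9% of all did. In log2 CPM without TMM 74 of the 100 genes passed. Among all 32336 genes 24231 then passed in either sign, against 20463 with TMM. The higher share among the 100 genes than among all genes thus depended on the scaling. With TMM it was not particular to the 100 genes. Without the 10 males with a shallow library only 2 passed, where 2.29% of all did, and with the first principal component of each treatment removed also 2, where 10.1% of all did. Total counts, too, were shared within males, with r of 0.68 between log2 totals, and their part in these correlations was not tested.

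Ranks 1, 2 and 40 had the highest r, and ranks 2 and 40 were those that passed by Spearman's rho, with the component removed and without the males with a shallow library. Rank 40 had r of 0.74 and rho of 0.79 (permutation p of 1e-05 for each, the smallest the permutations can give, adjusted p of 0.000539 and 0.00103), with an r of 0.64 once the 2 males farthest from the median were left out. It had r of 0.76 within the males above the gap, 0.71 within those below, 0.85 without the males with a shallow library (permutation test, adjusted p = 0.00711) and 0.77 with the first component removed (permutation test, adjusted p = 0.00131). Rank 2 had r of 0.80 and rho of 0.83, 0.78 without the 2 farthest males, 0.70 without the males with a shallow library and 0.53 with the component removed (permutation test, adjusted p = 0.0318 and 0.0349). Rank 1 had r of 0.75 and rho of 0.77. It did not pass with the component removed, with r of 0.43 (permutation test, adjusted p = 0.105), or without the males with a shallow library, with r of 0.44 (permutation test, adjusted p = 0.309). With TMM the lowest r were those of ranks 84, 93 and 6, at 0.17, 0.22 and 0.28 (permutation test, adjusted p = 0.398, 0.285 and 0.167). Their rho was 0.06, 0.21 and 0.46, and that of rank 6 passed the threshold (permutation test, adjusted p = 0.0314), while those of ranks 84 and 93 did not. The low r of rank 84 depended on the scaling. In log2 CPM without TMM it was 0.61 and passed the threshold (permutation test, adjusted p = 0.00264). Ranks 93 and 6 did not pass without TMM, with r of 0.33 and 0.22 (permutation test, adjusted p = 0.0908 and 0.267).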

How the data were processed

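RNA was sequenced from fresh and cryopreserved sperm of 30 males, 60 libraries in all. The deposited values are raw counts per gene, with 1 table per treatment. Per the submitters' processing notes FastQC 0.11.6, Trimmomatic 0.39, TopHat2 2.1.1 and bedtools were used. Build, annotation, strand and counting rule: not given in the sources used here. Per the labels' protocols the libraries came from a total RNA kit with ribosomal RNA removed, while the labels name polyA RNA, so the RNA fraction is uncertain. The fresh column of male 43 was matched by male and treatment, since its trailing number differs from its label. In all, 0 columns were unused.

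CPM used column sums. Genes were filtered by filterByExpr (1341 left out), scaled by TMM and tested with edgeR 4.0.16 (R 4.3.3), without covariates. DESeq2 1.42.0 and RLE size factors were alternatives. Log2 levels used a prior count of 2. The edgeR fit and the permutation test were tested on simulated data. Libraries of a male come from the same animal and are paired by the male number in the titles. Their deviations from the group means correlated by more than 0.1 in 22 of 30 males (median 0.63), and the lowest value was -0.65, in male 3. P-values measure the spread between single libraries of males. The genes, lists and tests were chosen with earlier results of these data known. The rule for genes described singly took ranks 1 to 10 and the border. It also took the 3 highest and lowest in fold change, in spread and in r across males between the treatments. Those least often among the 100 highest were taken too. Ranks 20, 21, 22, 23, 34, 36, 39, 51, 52, 65, 73 and 75 and the split of males by share were chosen after their values were seen. Intervals cover the spread between libraries. At most 2 identifiers in each direction of the fold change are printed.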

Additional observations from a re-analysis of the deposited data

How the results depend on the processing

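The comparison of treatments gave 0 genes at an adjusted p under 0.05 in each of its 6 alternatives, the male as a block among them (0 genes, 973 at an unadjusted p under 0.05), with 0.0909 (DESeq2) as the lowest adjusted p. The median log2 fold change of the 100 genes lay between -0.21 (male as a block) and 0.06 (RLE size factors), within the spread between males. The list shared 85 genes with that by mean log2 CPM, 88 by median CPM, 90 without males with a shallow library and 94 to 98 in the other alternatives. For the correlation across males between fresh and cryopreserved levels, 20463 genes passed in either sign. They became 3317 with the first principal component removed and 740 without the males with a shallow library. The 81 of the 100 genes became 36 by rank correlation, 2 with the component removed and 2 without those males, where fewer males were tested. The r of rank 10 turned to -0.0076 with the component removed. The median r over pairs in cryopreserved sperm was 0.27 in shares of the 100 genes, 0.93 with the component removed, 0.96 without TMM, 0.93 by rank correlation, 0.99 without the males with a shallow library, and 0.70 and 0.95 within the males above and below the gap, a split chosen after seeing the data. The cause of these changes was not tested. Ranks 1 and 2 had their lowest counts, 20 and 4, in a library of 18155252 counts, so counting error limits their low levels there.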

Other observations

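The list of the 100 genes with the highest mean in cryopreserved sperm shared 94 genes with the list from fresh sperm. Of the 6 genes that entered it, 5 stood at position 130 or better in fresh sperm. The sixth stood at position 574 in fresh and 62 in cryopreserved sperm, with means of 219.8 and 718.8 CPM, and was chosen for description after its values were seen. Its medians were 8.30 and 8.42 CPM, and its highest value was 1929 CPM before cryopreservation and 16177 CPM after it, in the library of male 39, the shallowest of all. Without that library its mean in cryopreserved sperm was 185.7 CPM. Its log2 fold change was 1.82 (SE 1.02, edgeR adjusted p = 1.00), and it was higher in the cryopreserved library in 15 of 30 males. The 6 genes that left the list were ranks 82, 87, 93, 97, 98 and 99, with means of 454.1 to 530.7 CPM in cryopreserved sperm.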
